A study of Mus musculus with 6 samples.

Results

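Cassette exons of a length divisible by 3 can be left out of a transcript without shifting the reading frame downstream of them. The skipped exon (SE) events described here had such an exon, of 31 bases or more and under 400 bases, between introns that were both at least 1000 bases and under 10000 bases long. They were selected on measured values as well. Control cells included the exon in 10% to 95% of the transcripts measured by the event. Reads of the event averaged 20 or more in Control and in cKO. Of 46394 SE events in the splicing table, 39173 had these reads and were tested, and 726 met every criterion. The 726 events covered 647 exons of 559 genes, and 67 exons occurred in more than 1 event, with other neighbouring exons or introns. Inclusion in Control cells chose the events, so the Control levels given here are a description. Each difference also contains these Control values and is not independent of the choice: over the events chosen in the same way on the cKO mean the median difference was -3.97 points, and on the mean of all 6 values -3.37, against -2.07 here. At the lower limit, exons of Bin1 (9.93%) and Ggps1 (9.77%) lay just outside and exons of Chka (10.07%) and R3hdm2 (10.3%) just inside. At the upper limit, exons of Rasa1 and Aff4 at exactly 95% were inside and exons of Cyb5r4 and Brd1 at 95.03% were outside.

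RNA came from CD4+ T cells sorted from spleen and lymph nodes of adult male mice. The 3 cKO libraries were U5-52Kf/f CD4-Cretg, in which the Cre under the Cd4 promoter removes Cd2bp2, the gene of CD2BP2/U5-52K, from the double positive stage of thymocyte development onward. Among the 3 Controls, the pair CTRL_1.2 and CTRL_3.4 had the genotype U5-52Kwt/f CD4-Cretg and thus carried Cre and a floxed allele, and library CTRL_5.6 was U5-52Kf/f CD4-Cre-, so genotype and Cre varied within the Control group. The splicing table gives 3 values per condition that carry no library names, and they are called Control values 1 to 3 and cKO values 1 to 3 in its order. Events of one gene share reads and cells. A p-value here reflects only the spread of libraries within a group, and for splicing that spread was drawn strongly toward a value shared across events.

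Splicing joins exons after the spliceosome has recognised the ends of each intron. U5 is the small nuclear ribonucleoprotein that holds the exon ends together during the reaction, and CD2BP2/U5-52K binds U5 before it enters the assembled spliceosome. A cassette exon whose splice sites are used only in part is left out of a share of the transcripts, and that share differs between cell types. In T cells the best known case is Ptprc, which encodes the receptor phosphatase CD45: its variable exons 4, 5 and 6 code for the A, B and C segments of the outer part of the protein, and memory T cells carry more of the short forms than naive T cells.

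The exons on which the results below turn are shown with their coding strand read 5′ to 3′, the exon in capitals and 12 bases of each neighbouring exon of the annotated transcript in lower case (GENCODE M21 transcripts, GRCm38). The 4 Ptprc exons lie next to each other on the minus strand of chromosome 1, and they are shown because the receptor had events at each of them. Exon 4 is at chr1:138122456-138122584, exon 5 at chr1:138120020-138120166, exon 6 at chr1:138117754-138117894 and exon 7 at chr1:138116954-138117025, and all are coding.
Ptprc exon 4, 129 bases: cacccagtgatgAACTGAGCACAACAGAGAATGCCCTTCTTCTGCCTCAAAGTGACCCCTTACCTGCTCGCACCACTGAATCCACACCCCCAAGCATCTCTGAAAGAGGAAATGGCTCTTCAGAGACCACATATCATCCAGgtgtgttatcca
Ptprc exon 5, 147 bases: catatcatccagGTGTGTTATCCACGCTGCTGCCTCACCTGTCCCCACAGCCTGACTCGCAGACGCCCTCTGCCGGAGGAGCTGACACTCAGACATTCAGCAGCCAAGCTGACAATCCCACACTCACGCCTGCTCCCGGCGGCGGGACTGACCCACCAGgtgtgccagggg
Ptprc exon 6, 141 bases: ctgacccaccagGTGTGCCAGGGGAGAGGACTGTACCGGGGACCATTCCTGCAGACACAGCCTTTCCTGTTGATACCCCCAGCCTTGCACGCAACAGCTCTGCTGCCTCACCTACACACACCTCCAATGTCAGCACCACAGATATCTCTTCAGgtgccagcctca
Ptprc exon 7, 72 bases: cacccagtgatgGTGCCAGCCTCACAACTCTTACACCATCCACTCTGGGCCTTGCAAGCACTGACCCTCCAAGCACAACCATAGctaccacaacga

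Outside Ptprc, the coding exons of at most 300 bases with the largest falls among the called events are shown (1 form where forms overlap) so that their lengths and their last bases can be read. They are Ndufaf6 (chr4:11066651-11066707, minus strand), Erbin (chr13:103824720-103824848, minus), Mia2 (chr12:59144699-59144770, plus), Camk2g (chr14:20745792-20745860, minus), Clpx (chr9:65312098-65312139, plus), Ube2j1 (chr4:33045080-33045199, plus) and Asap1 (chr15:64110906-64111076, minus).
Ndufaf6, 57 bases: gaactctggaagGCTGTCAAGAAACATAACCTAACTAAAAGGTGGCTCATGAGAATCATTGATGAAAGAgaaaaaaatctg
Erbin, 129 bases: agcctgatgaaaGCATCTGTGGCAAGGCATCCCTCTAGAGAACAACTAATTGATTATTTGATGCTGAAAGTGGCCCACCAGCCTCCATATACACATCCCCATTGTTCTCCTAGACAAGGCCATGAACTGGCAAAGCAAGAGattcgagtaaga
Mia2, 72 bases: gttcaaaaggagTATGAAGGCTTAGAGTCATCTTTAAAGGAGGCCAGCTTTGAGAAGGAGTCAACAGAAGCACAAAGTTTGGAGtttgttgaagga
Camk2g, 69 bases: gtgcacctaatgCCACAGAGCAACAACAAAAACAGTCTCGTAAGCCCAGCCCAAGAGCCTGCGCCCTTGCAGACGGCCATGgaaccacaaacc
Clpx, 42 bases: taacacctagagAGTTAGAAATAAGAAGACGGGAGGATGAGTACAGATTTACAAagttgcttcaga
Ube2j1, 120 bases: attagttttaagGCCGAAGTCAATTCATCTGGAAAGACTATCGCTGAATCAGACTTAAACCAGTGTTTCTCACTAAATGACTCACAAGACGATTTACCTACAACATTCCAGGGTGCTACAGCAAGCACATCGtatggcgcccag
Asap1, 171 bases: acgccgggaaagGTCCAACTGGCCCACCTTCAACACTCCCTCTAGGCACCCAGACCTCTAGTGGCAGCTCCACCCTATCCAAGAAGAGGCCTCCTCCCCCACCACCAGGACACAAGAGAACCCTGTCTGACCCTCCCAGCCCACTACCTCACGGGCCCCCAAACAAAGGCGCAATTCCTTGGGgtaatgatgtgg

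The deletion was visible in every library. Cd2bp2 had 2624 (CTRL_1.2), 2602 (CTRL_3.4) and 2612 (CTRL_5.6) normalised counts in the Controls. It had 884 (KO_7.8), 874 (KO_9.10) and 738 (KO_11.12) in cKO, a log2 fold change of -1.65 (adjusted p = 0.00137 by limma across 11001 genes). An exact two-sided permutation test over the 6 libraries gave p = 0.1, the smallest that 3 against 3 allows. Reads in genes ranged from 56995121 to 82286366 per library, and reads in the 726 events from 160386 to 255466 per value. Of 5 CD4 T cell markers 4 were found, with a summed level of 206458 to 231477 normalised counts in Control and 188423 to 205463 in cKO. All 5 B cell markers were present above 0, and their sum was 7060 to 10137 in Control and 3055 to 5761 in cKO. All 3 NK markers summed to 3066 to 4485 in Control and 5088 to 7097 in cKO. The sums of the B cell, NK and CD4 T cell lists thus separated the groups. Cd79b (B cell) and Klrb1c (NK) alone did not, and of the CD4 T cell markers only Cd3e did so alone. The 8 myeloid markers summed to 3213 to 6111 in Control and 4964 to 26157 in cKO, the highest value being KO_7.8. The 2 CD8 T cell markers summed to 710 to 1571 in Control and 614 to 916 in cKO, and 4 erythroid markers to 171 to 4063 and 329 to 3076. The part of these cells in the inclusion values was not tested, and in bulk RNA a change of inclusion within cells and a change in the mix of cells cannot be told apart.

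Most of these exons stayed close to their Control inclusion, and those that passed the test were nearly all skipped more often in cKO cells. An event was called at an FDR under 0.01 and a difference of at least 10 points in mean inclusion. A point is 1 percent of the transcripts measured by the event, and differences are given as cKO minus Control. Of the 726 events 29 were called, 27 lower and 2 higher in cKO. Among all 39173 tested events 0.498% were called, 0.406% lower and 0.0919% higher. Among the 5206 tested events of any exon length with the same Control range, which include the 726, 3.05% were called, and the share here was 3.99%. The 29 called exons belonged to 24 genes and to 25 places in the genome, since exons of Erbin, Git2, Ubap2l and Abi1 were each measured with a pair of alternative ends. The values of the groups did not overlap in any of the 29 events, which were chosen on these same values, so this is a description only. All cKO values lay below Control in 19.4% of the 726 events and above in 6.2%. These shares were 16.9% and 6.86% in the same Control range and 8.09% and 2.02% over all tested events. When each value was left out in turn, 11 of the 29 calls held in all 6 fits, 5 held in 5 fits and 13 in 4 or fewer. By edgeR's quasi-likelihood test none of the 726 events was called, with 26 at an unadjusted p under 0.05 and a smallest adjusted p of 0.253. With a prior for the spread taken from events with at least 10 reads of the rarer form, 18 of the 29 were called, and the exons of Ndufaf6, Erbin (both forms), Mia2, Camk2g, Asap1, Atf2, Ubap2l (60 bases), Rhot1, Qrich1 and Sptan1 were not.

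**Figure D1:**
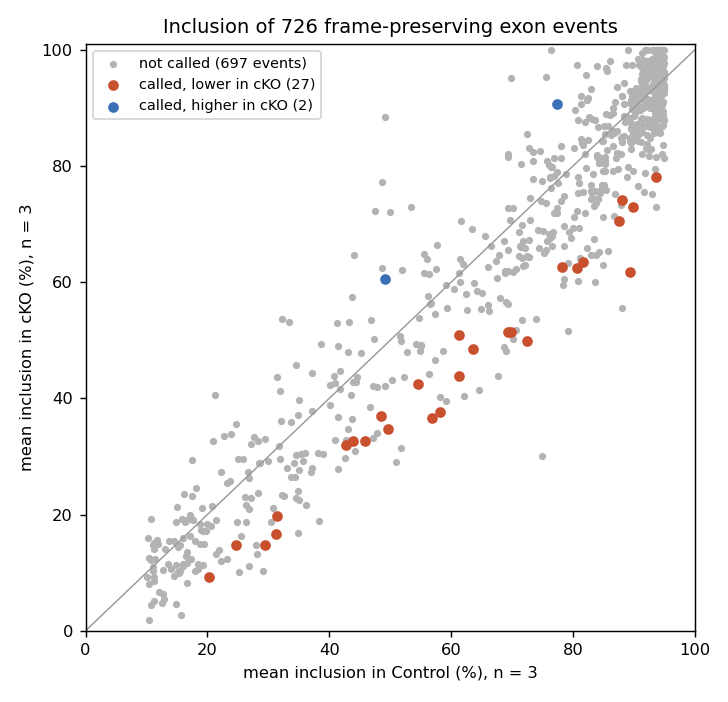
Mean inclusion in cKO (y axis, %) against mean inclusion in Control (x axis, %) for the 726 events, each mean over 3 values. Of the 29 called events, 27 lie below the line of equal inclusion and 2 above it.

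Over all 726 events the median difference was -2.07 points, with quartiles of -7.49 and 2.52, and 61.4% of the differences were negative. Over all tested events 63.9% were negative, and over the tested events with the same Control range the median was -1.4 points. Falls of at least 10 points were found in 112 events and rises of at least 10 points in 39 (15.4% and 5.37%). Over all tested events these shares were 2.59% and 0.809%, and over those with the same Control range 14.7% and 5.59%, so the shares here were near those of that range. The median inclusion over the 726 events was 79.8%, 79.6% and 79.9% in the Control values and 75.8%, 75.2% and 75.5% in the cKO values. The Control levels chose the events, so this is a description only. Over the events chosen alike but with an exon length not divisible by 3, the medians were 86.8%, 87.4% and 86.3% in Control and 86.1%, 84.2% and 84.4% in cKO.

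The called exons were found among well covered events. None of the 324 events with fewer than 100 reads was called, 7 of 245 with 100 to under 300 reads were, and so were 22 of 157 with 300 reads or more. In the best covered class 77.7% of the differences were negative and the median was -3.53 points. In the events with 20 to under 50 reads the median was 0.1 points. How the power of the test varied with reads was not tested. By Control inclusion, 2 of 92 events at 10% to 25% were called, 9 of 106 at 25% to 50%, 9 of 114 at 50% to 75%, 8 of 185 at 75% to 90% and 1 of 229 above 90%. Their medians were -1.57, -4.62, -5.37, -3.37 and -0.6 points in that order.

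**Figure D2:**
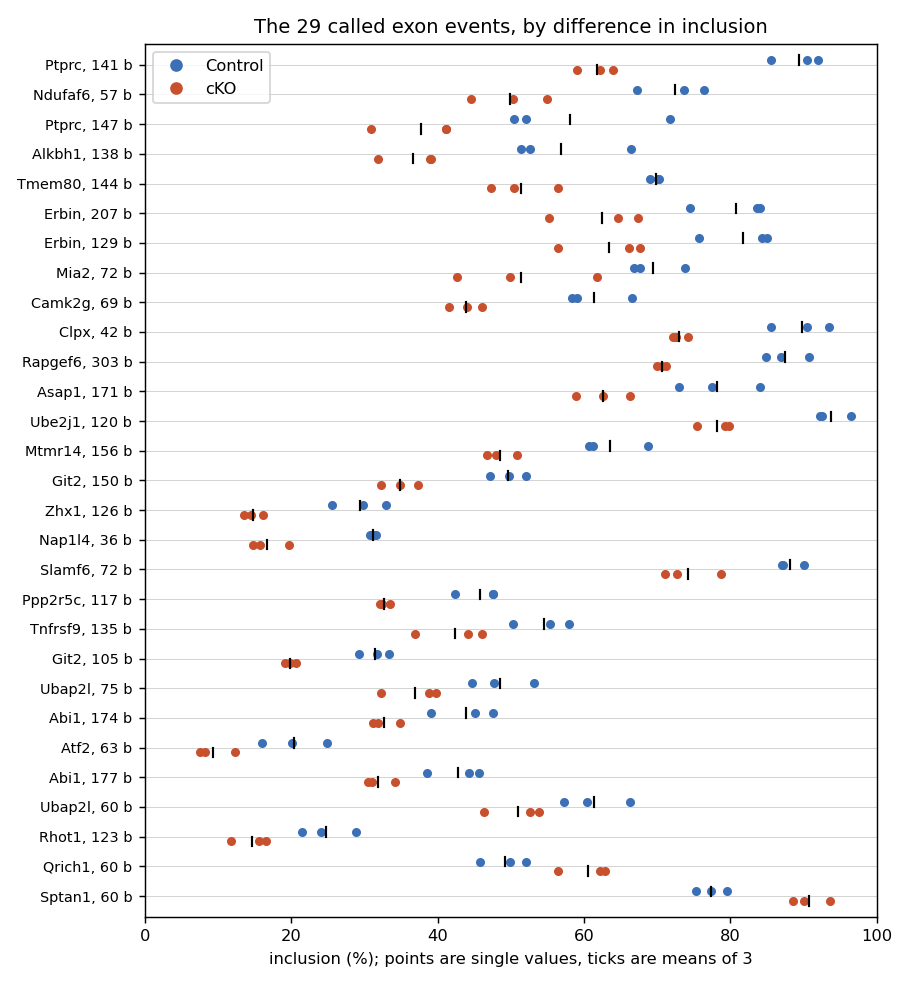
Inclusion (x axis, %) in the 29 called events, 1 row per event with the gene and the exon length in bases, ordered by the difference. Points are the 3 Control and 3 cKO values and black ticks their means, and in no row do the groups overlap.

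The largest fall among the called events was in Ptprc. In the event that joins exon 6 between exons 5 and 8, its inclusion was 91.9%, 90.5% and 85.5% in Control and 62.2%, 59.1% and 64.0% in cKO. Every cKO value lay more than 20 points below the lowest Control value. The means were 89.3% ± 3.4 (SD, n = 3) and 61.8% ± 2.5, a fall of 27.5 points (FDR = 5.73e-06 by the quasi-binomial model with limma), and leaving out a value kept the FDR at or below 0.000221. As the raw share of inclusion reads, without correction for the length over which each form can be read, the fall was 18.3 points and the call held. The event rested on a mean of 289 reads in Control and 177 in cKO, so these levels hold for that path and not for all Ptprc transcripts. The event of exon 7 between exons 3 and 8 had means of 7926 and 9979 reads. Skipping the exon removes 47 codons and touches codons 125 to 172 of 1293.

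Ptprc exon 5 was measured in a pair of events that share its body reads. Between exons 3 and 8 its inclusion was 50.4%, 52.1% and 71.7% in Control and 41.1%, 30.9% and 41.1% in cKO, with means of 58.1% ± 11.8 and 37.7% ± 5.9 (FDR = 6.95e-12). Control value 3 stood about 20 points above the other Control values, and without it the call held. Between exons 3 and 7, the event with the most reads (8199 and 8514), it was 34.3%, 35.8% and 46.6% in Control and 30.7%, 27.6% and 33.1% in cKO. That fall of 8.4 points passed the FDR (1.15e-07) but not the minimum of 10 points. Without Control value 3 it was 4.6 points (FDR = 2.51e-08).

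The outer Ptprc exons had the same sign. Exon 7, between exons 3 and 8, was included in 82.0%, 82.5% and 88.7% in Control and in 78.4%, 72.4% and 76.4% in cKO, a fall of 8.7 points at an FDR of 3.83e-11 with means of 7926 and 9979 reads. Exon 4, between exons 3 and 6, was at 54.7%, 76.3% and 62.4% in Control and 42.5%, 35.8% and 46.2% in cKO. Its difference of -23.0 points, on means of 164 and 89 reads, did not pass (FDR = 0.0223). All 5 events thus had cKO values entirely below Control, while the summed Ptprc level did not separate the groups (233038 ± 16300 and 229242 ± 20500 normalised counts, adjusted p = 0.946 by limma). The sum of the B cell markers given above was lower in all cKO libraries than in all Control libraries. B cells are known to carry long CD45 forms, and their part in the Ptprc values was not tested. By flow cytometry the study found a higher share of memory cells among CD4 T cells of cKO mice, and a lower naive share in spleen. The part of that shift in the Ptprc values was not tested either.

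**Figure D3:**
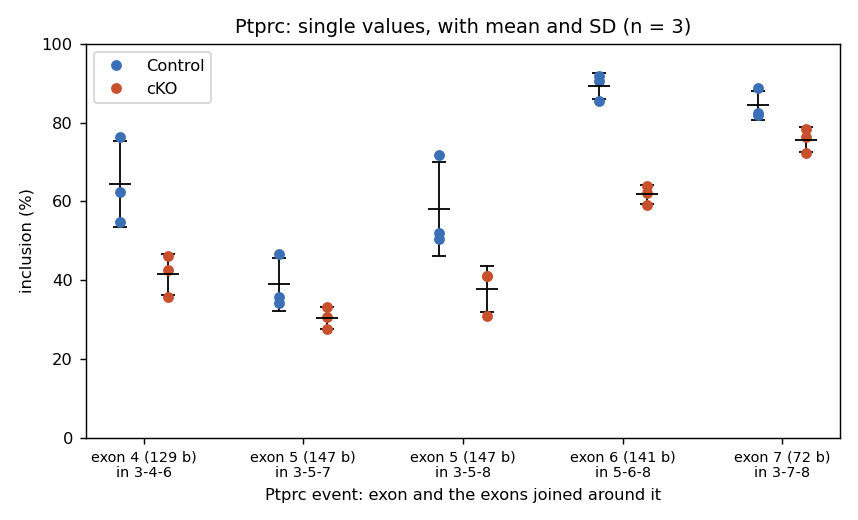
Inclusion (y axis, %) of 4 Ptprc exons in 5 events (x axis, with the exons joined around each). Points are single values and bars the mean and SD of 3. In every event the cKO values lie below the Control values, the exon 6 event being furthest apart.

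Slamf6, a receptor of the SLAM family on T and B cells, lost a coding exon of 72 bases near the end of its coding sequence (exon 7 of 8, codons 304 to 327 of 331). Inclusion was 87.2%, 87.0% and 90.1% in Control and 72.7%, 71.0% and 78.7% in cKO, a fall of 14 points (FDR = 5.71e-07). Tnfrsf9, the costimulatory receptor 4-1BB, had a 135-base exon (exon 7 of 8) at 57.9%, 55.4% and 50.3% in Control and 36.9%, 44.1% and 46.1% in cKO, a fall of 12.2 points (FDR = 5.16e-05). Its call was lost without cKO value 1, where the FDR was still under 0.01 but the difference was -9.4 points. Cd6, a receptor that binds CD166 and tunes T cell activation, had a 117-base exon at 86.1%, 85.3% and 88.3% in Control and 75.8%, 79.4% and 82.1% in cKO. The groups did not overlap and the FDR was 1.58e-08, but the fall of 7.5 points, or 4.9 points as the raw share, was under the minimum. Camk2g, the gamma subunit of a calcium and calmodulin dependent kinase, had its 69-base exon at 66.5%, 59.1% and 58.3% in Control and 46.0%, 41.6% and 44.0% in cKO (-17.4 points, FDR = 0.00306). It kept its call in 3 of 6 fits with a value left out, with an FDR of up to 0.0903 after Control value 1, cKO value 2 or cKO value 3 was left out.

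Rapgef6, an exchange factor that activates Rap GTPases, had a 303-base exon (exon 27 of 28) at 86.9%, 90.7% and 84.8% in Control and 70.0%, 71.2% and 70.7% in cKO. The cKO values spread by only 0.6 points (SD), and the fall of 16.8 points had an FDR of 1.93e-09. As the raw share of inclusion reads the fall was 7.5 points, and the call was lost. Git2, a GTPase-activating protein for Arf that also acts as a scaffold, had an exon with alternative 3′ ends. Its 150-base form was at 47.1%, 49.7% and 52.1% in Control and 37.3%, 32.3% and 34.9% in cKO (-14.8 points, FDR = 2.88e-08). The 105-base form, which shares its reads in part, fell by 11.6 points from 31.4% ± 2.0 to 19.8% ± 0.8. A further Git2 exon of 90 bases, downstream in the same transcript, went the other way, from 32.0% ± 2.7 to 41.2% ± 4.1, which passed the FDR (0.00415) but not the minimum. Both called Git2 forms held in all fits with a value left out.

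Asap1, another GTPase-activating protein for Arf, had a 171-base exon at 77.5%, 84.1% and 73.0% in Control and 66.3%, 62.6% and 58.9% in cKO, a fall of 15.6 points (FDR = 0.00807). Its call held in only 2 of 6 fits, with an FDR of up to 0.298, being lost without Control values 1 or 2 and without cKO values 2 or 3. The fall was 10.3 points as the raw share. Abi1, a subunit of the WAVE complex that drives actin branching, had an exon of 174 or 177 bases. The 174-base form fell from 43.9% ± 4.3 to 32.6% ± 2.0 (FDR = 1.18e-05) and the 177-base form from 42.8% ± 3.8 to 31.9% ± 2.0. Without Control value 3 the difference was -9.5 points for both, and with a prior that followed the reads of the rarer form, an alternative added after seeing the data, their FDRs were 0.0116 and 0.0153. Rhot1, a GTPase of the outer mitochondrial membrane, had a 123-base exon that fell from 24.7% ± 3.8 to 14.7% ± 2.5 (FDR = 0.0063) and held in 3 of 6 fits, with an FDR of up to 0.127 among the others, without Control values 1 or 2 or cKO value 2. With the prior that followed the reads its FDR was 0.0123.

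Ndufaf6, an assembly factor of respiratory complex I, had a 57-base exon at 67.2%, 73.6% and 76.4% in Control and 44.6%, 54.9% and 50.3% in cKO. The fall of 22.5 points was close to the threshold (FDR = 0.0097), and on means of 121 and 160 reads it held only when cKO value 2 was left out, with an FDR of up to 0.0783 otherwise. Clpx, the unfoldase of the mitochondrial ClpXP protease, had a 42-base exon at 90.4%, 85.6% and 93.5% in Control and 72.2%, 72.6% and 74.2% in cKO (-16.8 points, FDR = 8.05e-07). Here every fit with a value left out kept the call.

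Ube2j1, a ubiquitin-conjugating enzyme of the endoplasmic reticulum, had a 120-base exon at 92.3%, 92.5% and 96.4% in Control and 79.2%, 75.4% and 79.8% in cKO. This was the only called exon with a Control mean above 90%, and its fall of 15.6 points had an FDR of 4.15e-09. As the raw share of inclusion reads the fall was 9.9 points, and the call was lost. Mia2, which helps to export large cargo from the endoplasmic reticulum, had a 72-base exon at 73.8%, 67.6% and 66.8% in Control and 42.6%, 49.9% and 61.8% in cKO. The cKO values were spread (SD 9.7 points), and the call (-18.0 points, FDR = 0.00214) was lost without Control value 1 or cKO value 2, with an FDR of up to 0.0528. Mtmr14, a phosphatase of phosphoinositides, had a 156-base exon at 61.2%, 68.8% and 60.7% in Control and 50.9%, 46.7% and 47.9% in cKO (-15.1 points, FDR = 0.000383), lost without Control value 2 (FDR = 0.053). Erbin, a scaffold of cell junctions, had an exon near its C-terminus with 129-base and 207-base forms that end at the same base. The 129-base form was at 84.3%, 75.7% and 85.0% in Control and 67.7%, 66.1% and 56.4% in cKO, and both forms fell by 18.3 points (FDR = 0.00744 and 0.00835). Both were lost without Control value 1, Control value 3 or cKO value 3, with an FDR of up to 0.206. The 207-base form fell by over 1.5 times less as the raw share and was still called.

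The other called exons are named after their values were seen. Ppp2r5c, a regulatory subunit of protein phosphatase PP2A, had a 117-base exon at 42.4%, 47.5% and 47.6% in Control and 33.5%, 32.1% and 32.4% in cKO (FDR = 4.79e-12). The 36-base exon of Nap1l4, a histone chaperone, was the event with the smallest FDR of all 726 (1.08e-16). It was at 30.8%, 31.2% and 31.6% in Control and 19.7%, 15.7% and 14.7% in cKO, so a spread of 0.4 points in Control stood against a fall of 14.5 points. This exon holds the annotated stop codon of its transcript and is only partly coding. Ubap2l, an RNA-binding protein of stress granules, had forms of 75 and 60 bases that fell by 11.6 and 10.4 points, and these lost the FDR with the prior that followed the reads (0.0352 and 0.0548). The 75-base form was lost without Control value 3 or cKO value 2 and the 60-base form also without Control value 2, with FDRs of up to 0.0566 and 0.108. As the raw share the 60-base form fell by 9.7 points and was not called.

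Divisibility by 3 did not make every called exon part of a reading frame. In the annotation, the called exons of Zhx1, Atf2, Tmem80 and Qrich1 lie in 5′ UTRs, and that of Alkbh1 occurs only in a transcript annotated for nonsense-mediated decay. Alkbh1, a dioxygenase that acts on nucleic acids, fell from 51.4%, 52.6% and 66.4% to 38.9%, 31.9% and 39.1% (-20.2 points, FDR = 0.00042), and the call was lost without cKO value 2 (FDR = 0.0133). Tmem80, which encodes a membrane protein, had its 144-base exon at 70.1%, 69.0% and 70.3% in Control and 50.4%, 56.5% and 47.3% in cKO (-18.4 points, FDR = 0.00155), lost without Control value 1 or cKO value 3 with an FDR of up to 0.0394. For the transcription repressor gene Zhx1 the 126-base exon was at 29.8%, 25.5% and 32.9% in Control and 14.5%, 16.1% and 13.6% in cKO (FDR = 8.69e-05), which held in every fit. Atf2, a bZIP transcription factor, fell from 20.3% ± 4.5 to 9.3% ± 2.6 at an FDR of 0.00989 and held in 2 of 6 fits, with an FDR of up to 0.184 without Control values 1 or 3 or cKO values 1 or 2.

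The 2 exons that were called higher in cKO were both 60 bases long. Sptan1, the alpha chain of non-erythroid spectrin, had its exon at 79.5%, 77.4% and 75.3% in Control and 88.5%, 90.1% and 93.6% in cKO, a rise of 13.3 points (FDR = 0.00823). This call held in 1 of 6 fits, only without cKO value 1, with an FDR of up to 0.157. Qrich1, a glutamine-rich regulator of transcription, had a 5′ UTR exon at 52.0%, 49.9% and 45.8% in Control and 62.9%, 62.2% and 56.5% in cKO, a rise of 11.3 points (FDR = 0.00362). It held in 2 of 6 fits, with an FDR of up to 0.04 and being lost without Control values 2 or 3 or cKO values 1 or 2, and its FDR was 0.0546 with the prior that followed the reads. Neither rise was called with the prior from events with at least 10 reads of the rarer form.

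Among the lists of genes, that of T cell receptor and lymphocyte signaling had 15 exons of 12 genes among the 647, each exon counted once by its event with the most reads. Of these 3 fell (Ptprc exon 6, Slamf6 and Tnfrsf9), none rose and 12 did not pass, with a median of -6.6 points. Of 44 exons of chromatin and transcription regulators, 1 was called lower (Atf2) and 43 were not called, with a median of -3.87 points. Here Med14, a Mediator subunit, was at 78.3% ± 4.4 in Control and 59.5% ± 6.3 in cKO with an FDR of 0.0566, and Tcf7, a T cell transcription factor, at 78.0% ± 1.5 and 81.4% ± 0.6 with an FDR of 0.0128. Of 20 exons of membrane traffic and endocytosis, 1 was called lower (Asap1) and 19 were not called, with a median of -2.22 points. In this list the adaptor Sh3kbp1 was at 93.9%, 94.6% and 96.0% in Control and 88.5%, 89.7% and 87.8% in cKO, which passed the FDR (2.24e-08) at a difference of -6.2 points, or -3.6 as the raw share. The golgin Golga2 was at 47.5% ± 10.6 and 72.3% ± 9.3 with an FDR of 0.0263. Over the 647 exons the median was -2.07 points and 28 were called.

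None of the 20 exons of RNA splicing and RNA-binding proteins passed, and their median was 2.1 points. The smallest FDR was that of Fip1l1, a polyadenylation factor, whose 108-base exon was at 36.3%, 36.0% and 34.9% in Control and 29.0%, 29.0% and 29.7% in cKO (FDR = 0.0594). Zfp207 had 11.9% in Control and 14.9% in cKO (FDR = 0.199), and Mbnl1, a splicing regulator, 89.6% and 86.4% (FDR = 0.213). The list of apoptosis, p53 and DNA damage response had 4 exons, in Rad52, Mdm4, Fancm and 1 other gene, and none passed. The Mdm4 exon, of 78 bases (exon 3 of 11), was at 100%, 92.5% and 91.1% in Control and 100%, 98.0% and 97.5% in cKO, and the groups overlapped (FDR = 0.692). The Mdm4 exon that the study tested by RT-qPCR is a different one.

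Beyond the called events, 11 events passed the FDR with a difference under 10 points, 10 of them lower in cKO. In all 40 events passed the FDR, beside 1.09% of all tested events. They included U2surp, a protein associated with the U2 ribonucleoprotein, whose 186-base form fell from 80.2% ± 0.6 to 71.2% ± 3.2 (FDR = 0.000128) and whose 132-base form fell from 89.6% ± 0.1 to 83.9% ± 1.9 (FDR = 3.97e-05). These falls were 5.4 and 3.4 points as the raw share. Some large differences were not called. Tom1l2 had 74.9% in Control and 30.1% in cKO on means of 24.3 and 25 reads (FDR = 0.356), and Usp48 had 49.2% and 88.5% on 20 and 27 reads (FDR = 0.15). Tnrc6c, a protein of microRNA silencing, had 50% and 72% on 136 and 176 reads (FDR = 0.0159), and it was called without Control value 2 (FDR = 0.00794), without cKO value 1 (FDR = 0.0085) and with the prior that followed the reads (FDR = 0.00861).

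Other exons between introns of the same range served for comparison. Of 934 events whose exon length was not divisible by 3, with the same limits otherwise, 17 were called (1.82%), 16 of them lower, with a median of -1.05 points. Their median Control inclusion was 87.9%, against 80.8% for the 726 events, and their median reads were 100 against 116. Of 10572 near-constitutive events, with exons of any length in the same limits and Control inclusion above 95%, 1 was called (0.00946%) and the median was -0.17 points. The difference between these groups was not tested, and the groups differ in the Control inclusion at which calls were made.

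**Figure D4:**
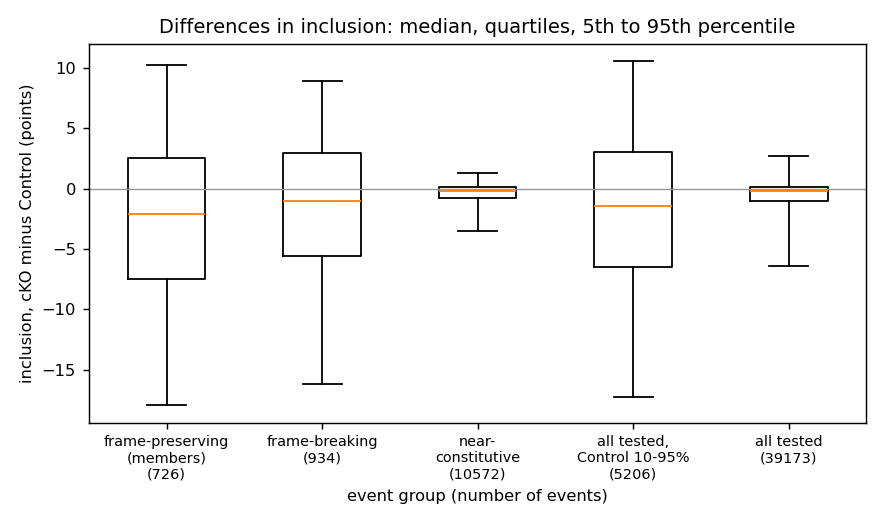
Difference in inclusion (y axis, cKO minus Control in points) in 5 groups of tested events (x axis, with their numbers). Lines are medians, boxes quartiles and whiskers the 5th and 95th percentiles. The median of the frame-preserving events is -2.07 points, that of the frame-breaking events -1.05 and that of all tested events -0.17.

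Among the 726 events the differences varied with intron length. Where both introns were under 3000 bases the median was -0.5 points and 52.4% of 208 differences were negative, and where both were 3000 bases or more the median was -3.38 points and 70.8% of 192 were negative. With only the upstream intron of 3000 bases or more, the median was -2.97 points (169 events), and with only the downstream intron it was -1.03 points (157 events). The calls did not follow this order, with 6, 7, 6 and 10 in the same sequence. By exon length, 11 of 169 events with an exon of up to 75 bases were called, 12 of 388 from 76 to 150 bases and 6 of 169 above that. The medians were -2.57, -2.28 and -0.9 points.

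In the annotation, 646 of the 647 exons were found. Of these 487 (75.4%) were coding throughout, 46 partly coding, 54 in 5′ UTRs, 28 only in transcripts annotated for nonsense-mediated decay and 31 in noncoding transcripts. For 463 coding exons in transcripts with a complete coding sequence the junction formed by skipping could be read. It held a stop codon in 2 cases and none in 461, and for the 21 called exons among them in 0 cases. The exon took up a median of 5.44% of the coding sequence. A G as the last base, which pairs with U1 in the usual donor site, was found in 79.7% of the 647 exons and 79.2% of all tested exons. Among the 28 exons called by their event with the most reads it was 19 (67.9%). An end in CAG or AAG was found in 42.6% of the 647 exons, 42.2% of all tested exons and 6 of these 28 (21.4%). The sequences above show both cases: the Ptprc exons 4, 5 and 6 end in CAG, while Ndufaf6 ends in AGA, Clpx in CAA, Camk2g in ATG and Ube2j1 in TCG. Median GC content was 46.5% in the called exons, 49.0% in the 647 exons and 49.6% in all tested exons.

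The levels of the host genes were compared with the same libraries. Of the 559 genes 550 were tested, and their median log2 fold change was -0.02 (quartiles -0.14 and 0.1), beside 0.01 over all 11001 tested genes. At an adjusted p under 0.05 and a log2 fold change beyond 1 in either direction, 0.564% of all tested genes were called and 1 host gene was. This was Tmie, a membrane protein of hair cell mechanotransduction, with 2147, 2446 and 3310 normalised counts in Control and 1235, 1099 and 1280 in cKO (log2 fold change -1.11, SE 0.17, adjusted p = 0.0425 by limma). Leaving out any single library ended the call, with adjusted p from 0.0578 to 0.175, and the 231-base member exon of Tmie was at 89.5% ± 0.6 and 91.3% ± 0.8 (FDR = 0.822).

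None of the 24 host genes of called exons was called by limma, and 2 of them had an unadjusted p under 0.05. Their log2 fold changes ranged from -0.39 to 0.46. Slamf6 had 11777, 10615 and 11335 normalised counts in Control and 8409, 8986 and 8412 in cKO (log2 fold change -0.39, adjusted p = 0.0968 by limma). Rapgef6 had 42807, 43661 and 43686 in Control and 35326, 34124 and 33948 in cKO (log2 fold change -0.33, adjusted p = 0.107 by limma). By DESeq2 the adjusted p was 0.00132 for Slamf6 and 9.46e-07 for Rapgef6, and by edgeR 0.0975 and 0.0816. Neither gene was called by DESeq2, as the log2 fold changes were -0.4 and -0.34. In both genes all cKO libraries lay below all Control libraries.

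**Figure D5:**
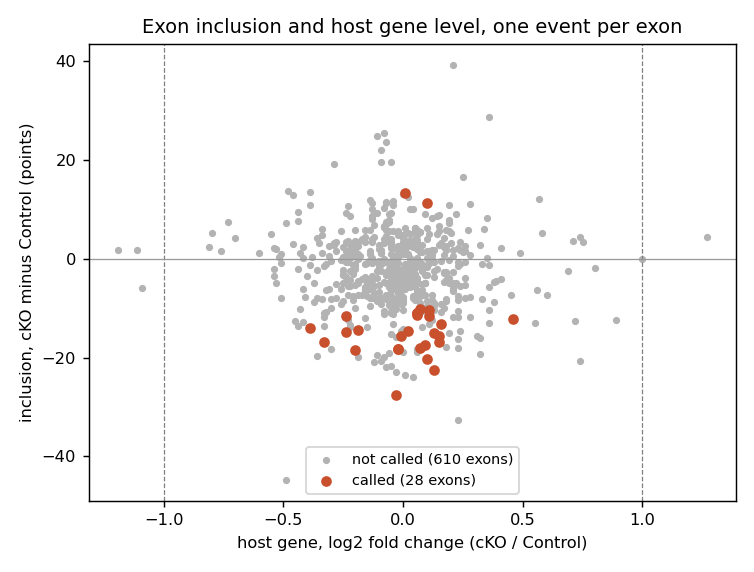
Difference in inclusion (y axis, points) against the log2 fold change of the host gene (x axis) for 638 exons with a tested host gene. The 28 called exons lie between -0.39 and 0.46 on the x axis, inside the dashed lines at 1 in either direction.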

How the data were processed

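Reads were trimmed (cutadapt) and aligned to GRCm38, or mm10 (STAR), by the authors, who ran rMATS for splicing and DESeq2 for expression. Not given in the sources used here was the annotation release used for alignment and rMATS; a release is named only for the study's list of gene and transcript IDs. The SE table that was deposited holds inclusion and skipping read counts from junctions and exons and, by the authors, an inclusion level given as a fraction, with a p-value and FDR that were not used. For expression the deposited file gives a signal per gene, which is counts divided by DESeq2 size factors; all were whole reads within 0.01 after rescaling. Other splicing classes and the authors' table of expression changes (log2 fold changes and p-values) were not used here.

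Inclusion and skipping counts of all 39173 SE events that averaged 20 reads or more in Control and in cKO were fitted by a quasi-binomial model. Effective lengths did not enter this fit, only the inclusion levels from which the differences were taken. Dispersions were moderated with limma 3.58.1 (R 4.3.3), with a prior from events with at least 5 reads of the rarer form and a floor of 1, and FDRs are Benjamini-Hochberg over all tested events. The model was also run on simulated counts whose spread was drawn from its own fitted prior. There it called 10.4% of falls of 10 points, 40.3% of falls of 20 points and 72.7% of falls of 30 points. As that spread is the one the model assumes, the simulation cannot show how often unchanged events are called in the real data. Host genes were tested with limma on log2(normalised count + 1), a scale that understates changes of low genes, for 11001 genes averaging 100 or more in Control or cKO, and with edgeR 4.0.16 and DESeq2 1.42.0 on whole reads. Exon positions and sequences came from GENCODE M21. Whether counting used strand was not examined, and overlapping genes or near-identical copies could share reads.

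The exons and gene lists were chosen with earlier results of these data known. The result of 1 list is not reported here. Named are the called exons with the largest falls (14) and rises, exons in genes the study tested by RT-qPCR, 3 exons of smallest p per list, exons at the limits, and called host genes. Alternatives changed the prior, the read minimum, the model, the thresholds, the choice of events and the values left in.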

Additional observations from a re-analysis of the deposited data

How the results depend on the processing

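The count of called events rose to 51 (46 lower) with the prior over all tested events, which called 373 in all, and dropped to 18 (all lower) with a prior from events with 10 reads of the rarer form. By edgeR's quasi-likelihood test 0 events here and 2 of all tested events were called, with 2254 of all tested events at an unadjusted p under 0.05. With each value left out in turn, 19 to 31 events here were called (fewest without Control value 3) and 133 to 198 of all tested. The main counts were 29 and 195. An FDR under 0.05 gave 42, no minimum of the difference 40, 1 event per gene 22, and the range applied to the cKO mean 29 (28 shared). A prior with a trend on reads of the rarer form gave 26 (23 shared). That prior and the choice of 1 event per gene were added after seeing the data. The median difference of -2.07 points became -3.97 with the range applied to the cKO mean, -3.37 with the range on the mean of all 6 values, -1.54 with the raw share of inclusion reads, and -2.41 to -1.74 with a value left out. DESeq2 called 4 host genes. Its share over all tested genes is not given here, so this count cannot be read as high or low. With each library left out in turn limma called 0 host genes instead of 1. The cause of these changes was not tested. Call status was followed over 55 events (all called, all past the FDR and the others named with an FDR in the text). Each had 5 other settings and 6 left-out values. The status was kept in 493 cases, a call ended in 97 and one was gained in 15, and the direction turned in none. A call could end only in the 29 called events, so all 97 lost calls fell on these. The 493 kept cases include those of events that were not called in the main fit, so they do not measure how stable the calls were. The log2 fold change of Cd2bp2 stayed between -1.7 and -1.57. No paired analysis was possible because the splicing values carry no library names and the library titles share no replicate numbers. Only 3 values per condition, with under 100 reads for 324 of the events, limit what could be detected.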
